A study of Drosophila melanogaster with 15 samples.

Results

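Bx and Smr are 2 X-linked genes of the fly for which every deposited CREB site, CRTC site and acetylated region was collected by gene symbol. Of the 58652 rows of the 6 deposited lists, 61 carried either symbol, 11 rows for Bx and 50 rows for Smr, and the lists named 7766 genes in all. Bx had 2 CREB sites, 2 CRTC sites, 4 H3K9Ac peaks, 2 H4K16Ac peaks and 1 region listed as increased in H3K9Ac after training. Smr had 3 CREB sites, 7 CRTC sites, 21 H3K9Ac peaks, 17 H4K16Ac peaks and 1 region listed as increased in each mark. At Bx, the CREB pair, 1 CRTC site, all H3K9Ac peaks and the listed region lay within 500 bp of the transcription start site (TSS), whereas at Smr the CREB and CRTC sites began 5077 bp downstream of the TSS and the listed regions lay at it or just upstream.

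Bx (Beadex) encodes a LIM-only protein, which has no DNA-binding domain of its own and acts by binding the LIM-domain cofactor Chi, for which LIM-homeodomain transcription factors such as Ap also compete. Smr (Smrter) encodes a large corepressor related to vertebrate SMRT and NCoR, which is recruited by factors such as the ecdysone receptor and Su(H) and works with histone deacetylases. CREB is a DNA-binding transcription factor, CRTC is its coactivator, and acetylation of lysine residues of histones H3 (H3K9Ac) and H4 (H4K16Ac) marks active chromatin. The study describes a repressor isoform of CREB, and its antibody was raised to detect all major isoforms. A CREB site here is therefore not assigned to an activator. H4K16Ac is also laid down along the male X chromosome by the dosage compensation complex, and for this reason X-linked values are given beside many of those of the whole genome. By its methods, the study took candidate genes from a pilot ChIP-seq experiment and tested nearly all by RNAi while replicates were analysed. The replicates then narrowed the candidates to a set with Bx and Smr in it, and the study reports both as required for memory maintenance. Both genes were thus selected with ChIP-seq data in view, so their presence in the lists is no independent evidence about them.

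All libraries came from the mushroom bodies (MBs), the fly brain structures for olfactory memory, of adults of both sexes, of the strain labelled CS10, which the study's methods write w(CS10), carrying the nuclear tag FLAG-KASH under MBp-LexA. By the study's description this driver is strong in α/β and γ neurons and weak in α′/β′ neurons, and nuclei of many flies were pooled for each library. H3K9Ac and H4K16Ac were each measured in 3 libraries from flies 1 day after spaced training (odor paired with electric shocks in repeated sessions separated by rest) and in 3 libraries from naive flies. The labels give a single spaced-trained library for CREB and another for CRTC, and an input library of naive flies, for 15 libraries in all, while the study's methods describe CREB and CRTC replicates in addition, which are not analysed here. The lists give no expression values, so the labelled MB origin could not be checked against marker genes.

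The CREB list held 4803 sites and the CRTC list 3002 sites. There were 23378 H3K9Ac peaks and 24152 H4K16Ac peaks. Each site carries an enrichment factor, the ratio of ChIP reads to background reads from the ERD caller, and each peak carries a score from the PICS caller. The rows of each peak table pass over the genome 3 times, and these runs carry no library name. A peak of Bx or Smr can thus be placed in run 1, 2 or 3 but not in spaced-trained or naive flies. Depth per library is unknown from these lists. Only the 2 lists of increased regions, 1889 for H3K9Ac and 1428 for H4K16Ac, carry the comparison of spaced-trained with naive flies, and their membership is used here as deposited. The study's methods call changed windows by an adjusted p-value from a count model, whereas these lists carry a t-test column, so a listed region here need not be one that the study counted as changed. The site lists are likewise used as deposited and need not be the study's full set of binding sites.

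The study checked these loci by ChIP and PCR, and its primers are shown because they are the designed sequences that mark what was called a target at each gene. At Bx, a single primer pair served for both H3K9Ac and CRTC. At Smr, H4K16Ac and CRTC had separate pairs, so 2 of 4 Bx primers were distinct against 4 of 4 for Smr. The sequences are given 5′ to 3′, no letter being marked, and both genes lie on X. No genome position was assigned to the primers here.
Bx H3K9Ac and CRTC, forward: gccggatagtttcctcttccttc
Bx H3K9Ac and CRTC, reverse: ctggctggtgggtgatataatg
Smr H4K16Ac, forward: ccatgcacaagcacatgtgtacgg
Smr H4K16Ac, reverse: ctgcagagcgaaccgcaacc
Smr CRTC, forward: gcgcgtgagtgtgtgtgttg
Smr CRTC, reverse: gacgcaacagcaacaacaagtg

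Positions are those of the files (dm3). The rows of Bx, which is read on the plus strand, spanned 19826 bp, chrX:18428504-18448330, and those of Smr, on the minus strand, spanned 32621 bp, chrX:12604664-12637285. Distances below run from the TSS of the peak tables to the center of a feature, positive downstream. For Bx this TSS lay at position 18428698, and the site lists imply a TSS 3 bp away. For Smr it lay at position 12636476, and the site lists imply another TSS 374 bp further downstream, at position 12636102. Distances of Smr sites as deposited are therefore shorter than those given here. A RefSeq annotation of a later build (Release 6) extends Bx upstream, to the first base of the neighboring HisRS gene, and rows near that start carry other symbols and are not counted for Bx.

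**Figure D1:**
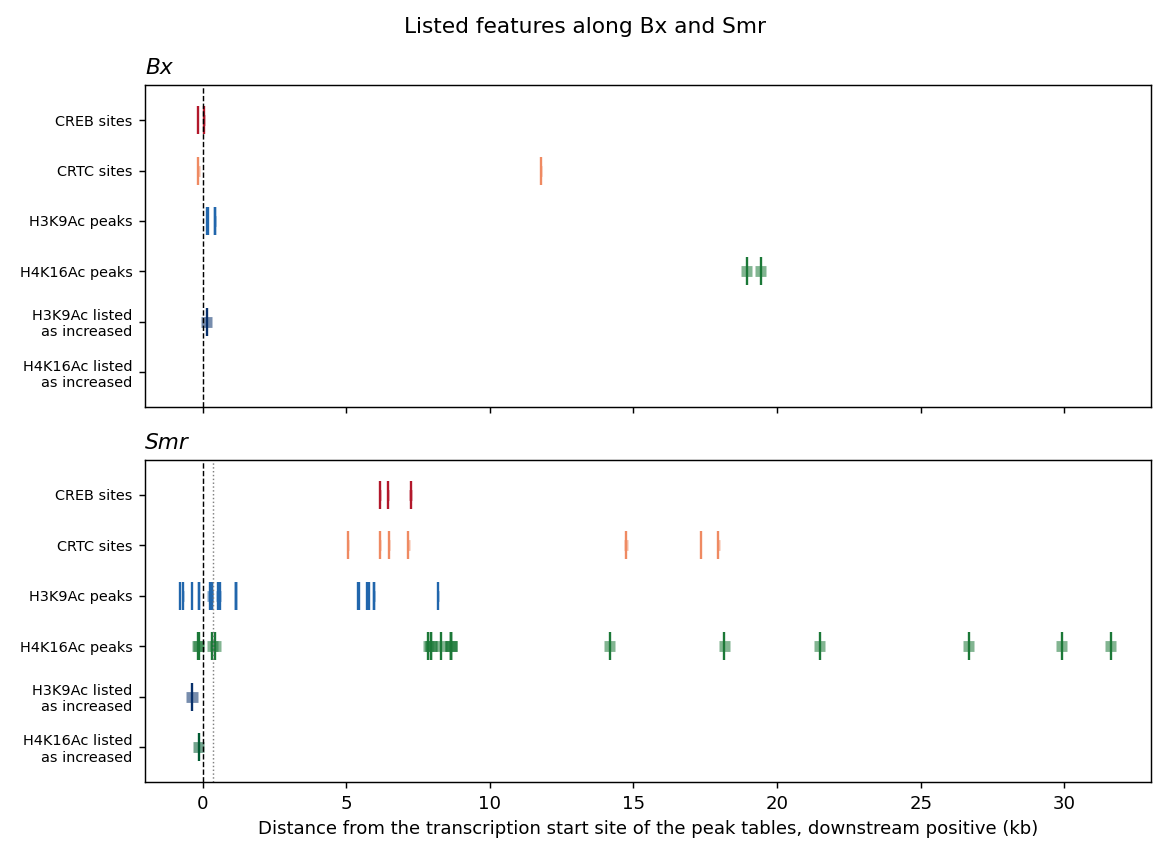
Features along Bx (upper panel) and Smr (lower panel), by distance from the TSS in kb, each vertical tick being the center of a listed feature and each horizontal bar its width. The dashed line marks the TSS of the peak tables and the dotted line the TSS of the site lists at Smr. Bx features sat near the TSS, at +11772 bp and at about +19 kb, whereas Smr features ran from -797 bp to +31612 bp, with every CREB and CRTC site between +5077 and +17961 bp.

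CREB occupied Bx at 2 neighboring sites that flanked the TSS. The upstream site, chrX:18428520-18428552, was centered at -162 bp (deposited distance to the TSS -143 bp) with a false discovery rate of 0.0018. The downstream site, chrX:18428728-18428772, was centered at +52 bp (deposited distance 32 bp) with a false discovery rate of 0.0010. Both carried an enrichment factor of 7.91, which exceeded 67.2% of all CREB sites and 55.1% of those on X. Equal factors are common among close neighbors: 939 of 1080 neighboring CREB sites within 500 bp (86.9%) and 472 of 537 CRTC neighbors (87.9%) shared one value, so the 2 Bx sites are not separate measurements of enrichment.

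CRTC also occupied Bx at 2 sites, but these lay far apart. The promoter site, chrX:18428504-18428596, centered at -148 bp (deposited distance -99 bp), had a factor of 5.74 with a false discovery rate of 0.0, above 70.0% of all CRTC sites and 56.9% of those on X. It contained the upstream CREB site, with centers 14 bp apart, and its edge lay 132 bp from the downstream CREB site. The other site, chrX:18440436-18440504, was centered at +11772 bp (deposited distance 11740 bp), with a factor of 6.88 and a false discovery rate of 0.0007. That distal site had the higher factor of the CRTC pair, above 81.9% of the list and 72.0% of X-linked sites, and stood 11664 bp from the nearest CREB site.

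At Smr, the 3 CREB sites formed a cluster of 1124 bp in the gene body. The farthest from the TSS, chrX:12629190-12629274, was centered at +7244 bp (deposited distance 6828 bp), with a factor of 9.09 and a false discovery rate of 0.0032. It exceeded 76.1% of all CREB sites and 64.4% of those on X. The other two, chrX:12629985-12630047 at +6460 bp (deposited 6055 bp) and chrX:12630274-12630314 at +6182 bp (deposited 5788 bp), shared a factor of 4.90, with false discovery rates of 0.0024 and 0.0022. That factor lay below the list median of 6.17 and the X median of 7.43, so the cluster held both a stronger and a weaker level of CREB enrichment.

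Each of those CREB sites overlapped a CRTC site. The CRTC sites of the cluster were chrX:12629250-12629362 at +7170 bp (factor 7.00, deposited distance 6740 bp), chrX:12629961-12630005 at +6493 bp (factor 5.29, deposited 6097 bp) and chrX:12630271-12630337 at +6172 bp (factor 5.29, deposited 5765 bp). Measured along the gene, their centers were offset from the CREB centers by -74, 33 and -10 bp. The pair with the highest CREB factor was thus also the one with the highest CRTC factor in the cluster, above 83.3% of all CRTC sites. The other pairs shared the same value of each factor, so this order rests on few separate values.

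The remaining 4 CRTC sites of Smr had no CREB site nearby. The site chrX:12621677-12621797 at +14739 bp (deposited 14305 bp) carried the highest factor of either gene, 10.23, with a false discovery rate of 0.0012. It exceeded 96.1% of all CRTC sites and 92.5% of those on X, and lay 7393 bp from the nearest CREB site. The others were weaker, at +5077 bp (chrX:12631386-12631412, factor 3.99, deposited 4690 bp), at +17338 bp (chrX:12619133-12619143, factor 4.09, deposited 16959 bp) and at +17961 bp (chrX:12618469-12618561, factor 3.90, deposited 17541 bp), against a CRTC median of 4.67 in the whole list and 5.38 on X. The highest CRTC factor therefore fell away from CREB at Bx and at Smr alike.

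The study defined CREB/CRTC-binding sites as CREB and CRTC sites within 200 bp of each other. Distances to a CREB/CRTC site, here and below, run to the CRTC site of such a pair and not to its CREB site. By this definition 2 of 2 CREB sites at Bx and 3 of 3 at Smr had a CRTC site nearby, against 2514 of 4803 in the whole list (52.3%) and 411 of 772 on X (53.2%). The exact (Clopper-Pearson) 95% intervals were 15.8% to 100.0% for Bx and 29.2% to 100.0% for Smr, so neither share can be set apart from that of the list, and such intervals cover counting error only. In the other direction, 1 of 2 CRTC sites at Bx (1.26% to 98.7%) and 3 of 7 at Smr (9.9% to 81.6%) had a CREB site nearby, against 2390 of 3002 in the list (79.6%) and 392 of 496 on X (79.0%). The Bx interval includes the list's share and the Smr upper bound of 81.6% lies just above it. Sites within a gene share a locus and are not replicates.

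Smr was the richer of the pair in CRTC sites. Bx, with 2 CREB and 2 CRTC sites, exceeded 58.0% of the 2536 genes with any CREB site and 61.0% of the 1671 genes with any CRTC site. Smr, with 3 CREB sites, exceeded 80.1% of those genes, and its 7 CRTC sites exceeded the number at 98.4%, with 21 genes having more. Counts per gene are not corrected for gene length. Both Bx and Smr had a CREB/CRTC site, as did 1396 of the 7766 genes named (18.0%).

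**Figure D2:**
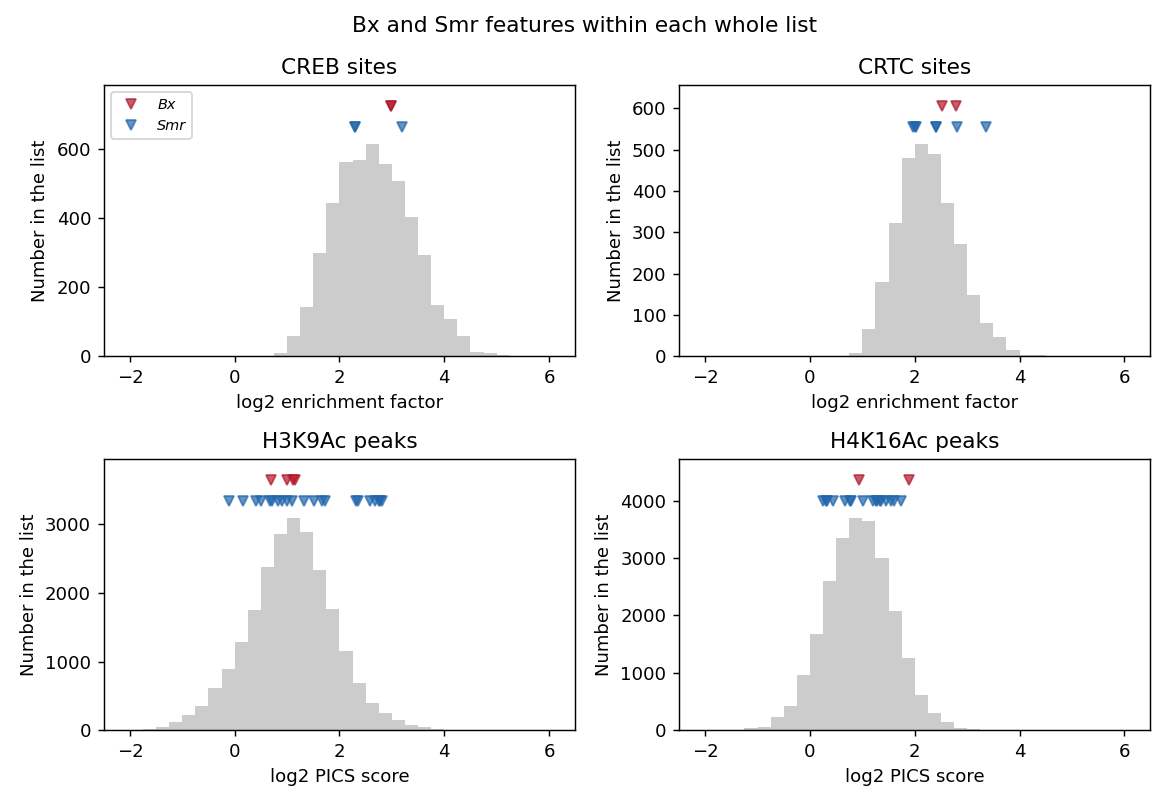
Enrichment factors of CREB and CRTC sites and PICS scores of H3K9Ac and H4K16Ac peaks, on a log2 scale, with the number in each whole list as grey bars. Triangles mark each feature of Bx (upper row) and Smr (lower row). The CRTC site of 10.23 and the H3K9Ac peaks up to 7.04 at Smr stood in the upper part of their lists, as did the H4K16Ac peak of 3.70 at Bx.

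H3K9Ac at Bx was confined, in these lists, to the first part of the 5′UTR. The first position, just downstream of the CREB site at +52 bp, was called at +184 bp with a score of 1.63 in run 2 and at +142 bp with a score of 1.99 in run 3. The second was called at +426 bp with a score of 2.22 in run 2 and at +450 bp with a score of 2.17 in run 3. Run 1 held no peak named Bx. These scores lay around the list median of 2.13, and the highest exceeded 44.1% of the 1977 X-linked H3K9Ac peaks within 500 bp of a TSS, whose median was 2.40.

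H3K9Ac at Smr reached higher scores near the TSS and was more widely spread. The 4 peaks of Bx fell into 2 positions over 374 bp, and the 21 peaks of Smr into 11 positions over 9033 bp. The highest single score, 7.04, stood at a position called at +321, +325 and +244 bp, with 7.04 in run 1, 6.83 in run 2 and 5.12 in run 3, which is -53, -49 and -130 bp from the TSS of the site lists. A second position was called at +1155, +1153 and +1161 bp, with 6.41 in run 1, 5.99 in run 2 and 6.72 in run 3. Both positions were thus present in all 3 runs. The 4 scores at Bx reached 2.22, whereas these 6 scores, the highest at Smr, began at 5.12. Not every Smr peak near the TSS was above Bx: those within 500 bp upstream scored 1.78, 2.13 and 1.12. The highest, 7.04, exceeded 98.0% of all H3K9Ac peaks and 98.6% of X-linked peaks near a TSS.

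Further into Smr, a group of intronic H3K9Ac peaks lay between the TSS and the CREB/CRTC cluster. They were called at +5425 bp with 2.86 in run 1 and at +5431 bp with 4.96 in run 3, then between +5739 and +5780 bp with 1.32 in run 1, 1.63 in run 2 and 1.60 in run 3. A position at +5972 bp in run 1 and +5983 bp in run 3, with scores of 1.99 and 1.42, lay 145 bp from the nearest CREB/CRTC site and was the closest acetylation peak to that cluster. A peak of run 1 alone at +8197 bp scored 2.52. Upstream of the TSS the scores were low, with 1.78 in run 2 at -128 bp, 2.13 in run 3 at -117 bp, and 1.12, 1.86 and 0.931 at -372, -665 and -797 bp in run 3 alone.

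**Figure D3:**
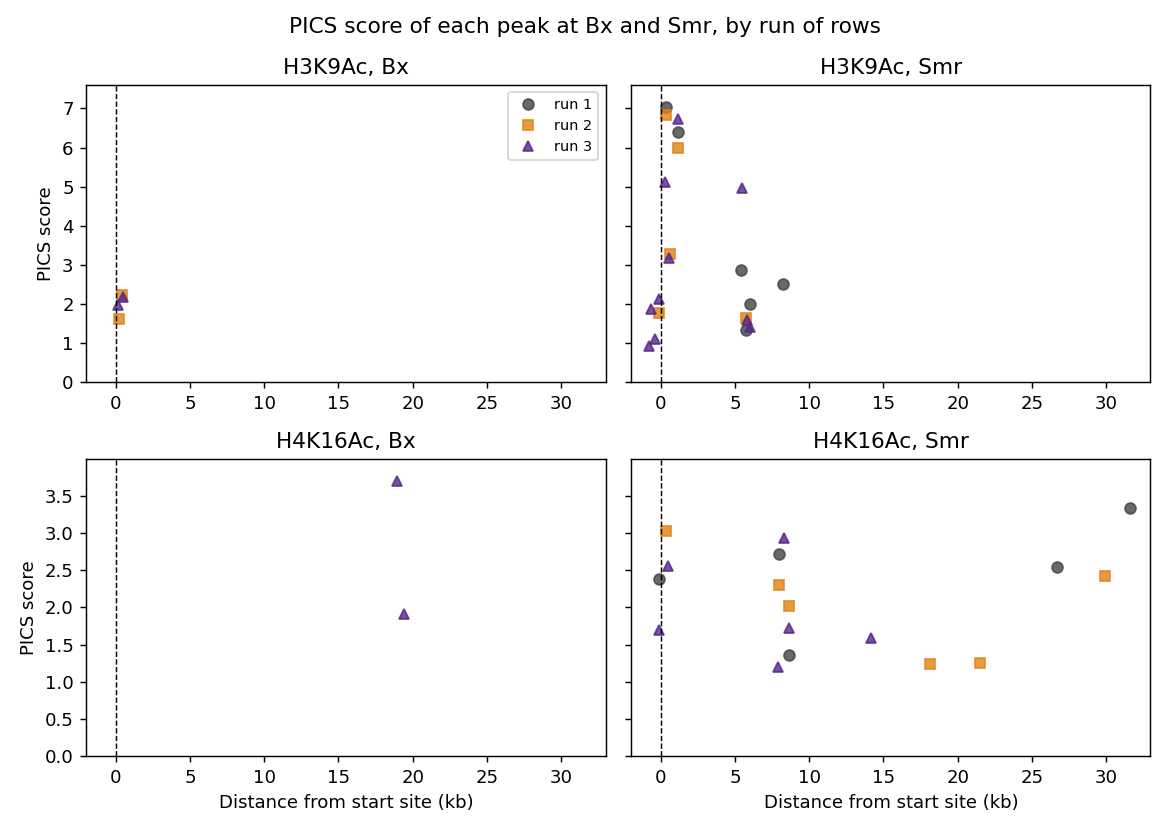
PICS score of each peak against distance from the TSS in kb, with H3K9Ac above and H4K16Ac below, Bx in the left column and Smr in the right, and marker shapes for the 3 unnamed runs of rows. The H3K9Ac scores of Bx stayed at or below 2.22, while those of Smr reached 7.04 close to the TSS. The H4K16Ac peaks of Bx came from run 3 alone.

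H4K16Ac was absent from the start of Bx in the peak table. The only peaks named Bx were intronic and came from run 3, at +18938 bp with a score of 3.70 and at +19432 bp with a score of 1.91. The stronger exceeded 93.3% of all H4K16Ac peaks and 90.2% of those on X. Both lay beyond the distal CRTC site, 6932 and 7426 bp from it. Since a peak list holds only regions past its caller's threshold, a lower H4K16Ac level near the Bx TSS was not detectable here.

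H4K16Ac at Smr reached from -150 to +31612 bp, over 12 positions. Every H4K16Ac peak of Bx and Smr was 400 bp wide as deposited, whereas their H3K9Ac peaks were 8 to 142 bp wide. Edge distances and overlaps are therefore not alike between the marks, and neighboring H4K16Ac positions can overlap. Only 2 positions were called in all 3 runs, both in an intron at about +8 kb. The first had scores of 1.36 in run 1 at +8643 bp, 2.01 in run 2 at +8649 bp and 1.72 in run 3 at +8646 bp. The second had 2.72 in run 1 at +7954 bp, 2.30 in run 2 at +7953 bp and 1.19 in run 3 at +7863 bp, and the run 3 peak lay 437 bp from the nearest CREB/CRTC site. Between them, run 3 had a peak of 2.93 at +8298 bp.

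At the start of Smr, H4K16Ac was called at -140 bp in run 1 with 2.38 and at -150 bp in run 3 with 1.70, and inside the gene at +340 bp in run 2 with 3.02 and at +449 bp in run 3 with 2.55. The score of 3.02 exceeded 76.5% of the 2649 X-linked H4K16Ac peaks within 500 bp of a TSS, whose median was 2.20. The highest score of the gene, 3.33, was at the other end, in a coding exon at +31612 bp in run 1, with 2.42 in another coding exon at +29910 bp in run 2. Intronic peaks of 1 run each stood at +14170 bp (1.59), +18166 bp (1.23), +21479 bp (1.25) and +26670 bp (2.54). The peak at +18166 bp overlapped a CRTC site without CREB, and that at +14170 bp lay 309 bp from the CRTC site of factor 10.23.

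Peaks were then set to 400 bp windows, the width of the listed regions, with overlapping windows counted once. Bx had 1 H3K9Ac and 2 H4K16Ac windows, and Smr had 7 and 10. The 2 H4K16Ac windows of Bx exceeded the number at 70.7% of the 5796 genes with any. The numbers at Smr exceeded those of 98.9% of the 4997 genes with an H3K9Ac window and 99.6% of genes with an H4K16Ac window. Window counts are not corrected for gene length either. Both H4K16Ac windows of Bx, most of those of Smr and some of its H3K9Ac windows held peaks of 1 run only. Windows that overlapped a window of the other mark made up 0 of 1 for H3K9Ac and 0 of 2 for H4K16Ac at Bx, and 3 of 7 and 3 of 10 at Smr, against 73.0% and 59.9% over all windows, and 81.3% and 39.1% over X-linked windows. The Smr intervals were 9.9% to 81.6% for H3K9Ac and 6.67% to 65.2% for H4K16Ac. They include the shares of all windows and of X-linked windows, so the lower values are within counting error. Windows of a gene are not independent, which these intervals do not cover. The 3 overlaps at Smr were of 381 bp just inside the gene, 168 bp upstream of the TSS and 157 bp at about +8 kb.

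Smr windows lay both at and away from the start. Windows centered within 500 bp of a TSS made up 1 of 1 for H3K9Ac and 0 of 2 for H4K16Ac at Bx, 2 of 7 and 2 of 10 at Smr, and 58.9% and 54.2% over all windows (63.0% and 42.0% on X). The Smr intervals, 3.67% to 71.0% and 2.52% to 55.6%, include all of these shares. Windows annotated as intron made up 0 of 1 and 2 of 2 at Bx, 5 of 7 and 7 of 10 at Smr, and 34.7% and 31.6% over all windows (32.3% and 32.1% on X). The interval for H4K16Ac windows in introns of Smr, 34.8% to 93.3%, began above the share of all windows, that for H3K9Ac, 29.0% to 96.3%, did not, and windows of a gene are not independent.

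Spaced training entered these lists as regions the authors listed as increased. At Bx, 1 of 1 H3K9Ac window was listed and 0 of 2 H4K16Ac windows. The H3K9Ac position of Bx at +426 to +450 bp lay outside the listed region. It got no window of its own, because that window would have overlapped the listed one. When overlapping peaks were merged at their deposited width Bx had 2 H3K9Ac windows, and without run 3 it had 0 H4K16Ac windows. At Smr, 1 of 7 H3K9Ac windows and 1 of 10 H4K16Ac windows were listed. Over the whole series 24.2% of H3K9Ac windows and 15.3% of H4K16Ac windows were listed, and 25.3% and 15.2% of those on X. Counted by gene, 35.3% of genes with an H3K9Ac window and 22.8% of those with an H4K16Ac window had a listed region. A gene with a region listed in each mark, as Smr had, was 1 of 441 among 7766 (5.68%). These members' counts are too few to be set apart from the background.

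**Figure D4:**
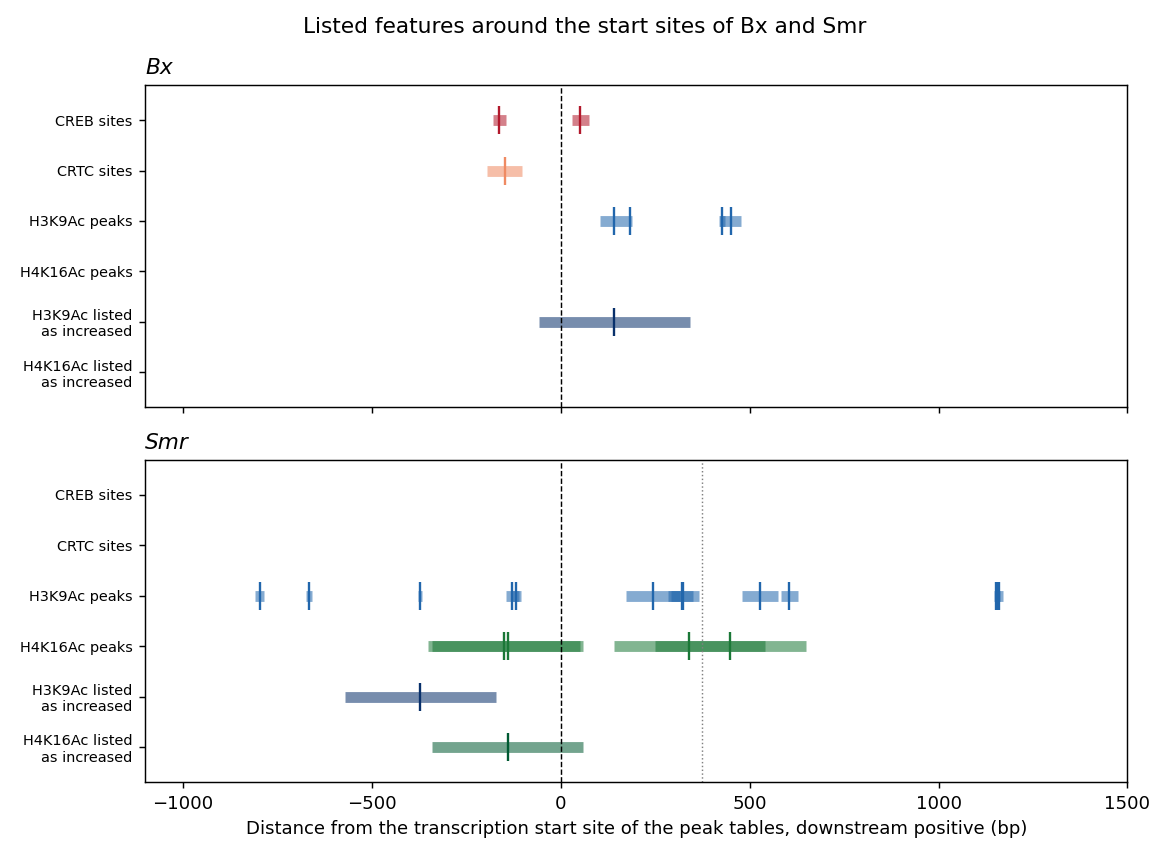
The start of Bx (upper panel) and Smr (lower panel), by distance from the TSS in bp, with ticks at feature centers and bars for widths. The dotted line marks the TSS of the site lists at Smr. At Bx the CREB sites, the promoter CRTC site and the listed H3K9Ac region lay within 500 bp of the TSS, and the distal CRTC site lay outside the plot. At Smr this window held the centers of both listed regions and no CREB or CRTC site.

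The listed region of Bx, chrX:18428640-18429040, lay in the 5′UTR with the TSS inside it, centered at +142 bp. Its false discovery rate of 0.0046, like those of the other listed regions, concerns the call of the peak and not the change after training. It was centered on the run 3 peak of score 1.99, which ranked 3 among the 4 peaks of the gene, and held 2 peaks from 2 runs. The downstream CREB site lay wholly within it and the promoter CRTC site lay 44 bp from its edge. Of all listed H3K9Ac regions, 10.5% had a CREB/CRTC site within 200 bp and 12.5% overlapped a CREB site (9.13% and 8.73% on X). The Bx region was closer to a CREB/CRTC site than most, since 7.62% of listed regions were closer and the median distance was 14872 bp. No H4K16Ac peak lay inside it.

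The listed H3K9Ac region of Smr, chrX:12636648-12637048, lay upstream of the gene, centered at -372 bp (deposited distance of its edge -171 bp), with a false discovery rate of the peak call of 0.0041. It was set on a run 3 peak with a score of 1.12, which ranked 20 among the 21 peaks of Smr and exceeded 13.0% of all H3K9Ac peaks. By contrast, the peaks of 5.12 to 7.04 just downstream were not in the list of increased regions. Of the listed H3K9Ac regions, whose central peaks had a median score of 1.98, 50.1% scored lower than the Bx region and 14.9% lower than the Smr region. Among 185 genes with 3 or more H3K9Ac windows and 1 listed, the listed window held the highest score in 60 (32.4%). With 3 or more windows, a window taken without regard to score would also be the highest in a minority of genes. The share is therefore not read as a trait of listed regions. The region lay 6311 bp from the nearest CREB/CRTC site, and 32.8% of listed regions were closer.

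The listed H4K16Ac region of Smr, chrX:12636416-12636816, held the TSS, centered at -140 bp, with a false discovery rate of the peak call of 0.0057. Its peak of 2.38 in run 1 ranked 8 among 17 and exceeded 69.1% of all H4K16Ac peaks, and run 3 had a peak at the same place. As for H3K9Ac, the listed region was not the gene's highest in score. It was the highest in 64 of 224 such genes for H4K16Ac (28.6%), a share with the same limit. It overlapped the listed H3K9Ac region by 168 bp. Such an overlap with the other mark's list was found for 24.6% of listed H4K16Ac regions and 18.4% of listed H3K9Ac regions. On X these shares were 22.8% and 28.2%. The nearest CREB/CRTC site lay 6079 bp away and the nearest CRTC site of any kind 5004 bp away, against a median distance to a CREB/CRTC site of 12494 bp over all listed H4K16Ac regions, of which 37.9% were closer. At Bx, the CRTC site of the nearest CREB/CRTC pair thus lay 44 bp from the listed region, and a CREB site paired with it lay inside that region. At Smr, both listed regions lay more than 6 kb from any CREB/CRTC site.

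Partners of the proteins were examined from 2 lists of genes. Of 8 LIM-domain genes and cofactors, 5 were named in the files, and all 5 had CREB sites, CRTC sites and CREB/CRTC sites, against 18.0% of all genes named with a CREB/CRTC site. A gene is named only if it has a row in some list, which holds for the 5 and for the genes behind the 18.0% alike. The 5 are few and come from a list chosen with earlier results known, so no enrichment is read from them. The promoter sites of Bx, at 7.91 for CREB and 5.74 for CRTC, stood within the range of these genes. Ssdp, a cofactor that binds Chi, had the highest CREB factor, 32.22, with a CRTC factor of 9.10. Lim1, a LIM-homeodomain factor, had 14.02 for CREB and 11.94 for CRTC. The GATA factor gene pnr had 8.24 and 11.12, the selector gene ap 6.52 and 5.31, and Chi itself 3.76 and 3.26. Chi and Ssdp had windows of both marks and the other three had none. Neither of the 2 genes with windows was listed as increased in either mark, where 35.3% of all genes with an H3K9Ac window and 22.8% of those with an H4K16Ac window were, and 2 genes are too few to be set apart from these shares.

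Of 10 corepressors and factors that recruit them, 9 were named. Sites for CREB and CRTC that paired within 200 bp were present at 4 of the 9, against 18.0% of all genes named. EcR, the ecdysone receptor, had 12 CREB and 9 CRTC sites (highest factors 7.48 and 6.95), the corepressor Sin3A had 11 and 9 (10.51 and 6.38), CtBP had 4 and 2 (6.24 and 4.32), and gro had 2 and 1 (8.53 and 4.72). The WD-repeat corepressor gene ebi had a CREB site alone, with a factor of 9.38. Hdac3, the deacetylase partner of SMRT-type corepressors, had neither, nor had Su(H), H and usp. A region listed as increased was present for H3K9Ac at 5 genes (Sin3A, gro, H, EcR, usp) of the 8 with an H3K9Ac window, and for H4K16Ac at 4 (Sin3A, gro, CtBP, H) of the 9 with an H4K16Ac window, against 35.3% and 22.8% of all genes. Smr was listed in both marks, as were Sin3A, gro and H, against 5.68% of all genes named. That share also counts genes without a window of 1 or both marks, so the bases are unlike. No interval was taken for the counts of this partner list, whose genes were chosen with earlier results known, and no enrichment is read from them.

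For likeness, each gene was described by its numbers of CREB sites, CRTC sites, windows of each mark and listed regions of each mark, and distances were taken on log2(number + 1) over these 6 numbers. CG6785 and Kdm4B, a histone demethylase gene, had the same 6 numbers as Bx (distance 0), followed by CG42593, Gpdh and sqz at 0.415, which differed by 1 H4K16Ac window. Nearest to Smr was CG13624 at 0.619, with 3 CREB and 5 CRTC sites and 7 windows of each mark, then aop at 1.09, CG9005 at 1.13, jim at 1.21 and Hnf4 at 1.22. No gene had the numbers of Smr. Bx and Smr stood 3.27 apart, with Smr at rank 7722 from Bx and Bx at rank 402 from Smr. The rank thus differed with the gene it was taken from.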

How the data were processed

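ChIP-seq site and peak lists from fly MB nuclei were analyzed as deposited. The authors aligned reads to the dm3 genome and called peaks over input DNA by PICS and ERD, as their methods state. CREB and CRTC sites were stated to be those called in a majority of biological replicates, whereas the labels give 1 library of each here. The authors deposited false discovery rates of peak calling from PICS (values of the q-value kind, which do not concern the change after training), the enrichment factor as a ratio of ChIP to background reads (ERD), PICS scores with no fixed range, and distances to a TSS. The lists of increased regions also hold the authors' mean, SD and t-test of the comparison, which were not used. No list holds values per library, so no test between spaced-trained and naive flies was run. The lists give no depth, and replicates could not be compared. Decreased regions are not analysed here.

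The members, the partner lists and the named genes (Bx and Smr in full, both partner lists, the 5 nearest genes by likeness, and neighbors inside a span) were chosen with earlier results of these data known. Windows of 400 bp were taken from listed regions first and then from peaks in table order, without overlap. Peak positions of the 3 runs were joined where centers lay within 100 bp. Distances between features are between edges. Intervals are exact binomial at 95%. Coordinates are the files' own, and gene names outside the lists came from a RefSeq table (Release 6), used for names and for which genes overlap or share a start, with none of its coordinates printed. Python 3.11.15, numpy 2.4.6, pandas 2.3.3 and scipy 1.17.1 were used, and distance and window functions were tested on simulated data. Alternatives covered the pairing distance, enrichment factor and false discovery rate, window construction, runs of rows, overlap and assignment by position.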

Additional observations from a re-analysis of the deposited data

How the results depend on the processing

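Of 80 alternatives to 21 counts, 66 left the count within 1.5 times its value and 14 moved it. Some of the 66 could not have moved the count. Among these were stricter overlap rules on counts already 0, and runs left out that held no peak of the gene. A false discovery rate limit that every CREB and CRTC site already met was another. The tally is therefore no measure of how robust the counts are. When pairs had to overlap directly, 1 CREB site at Bx kept a CRTC site, in place of 2. With direct overlap to the CRTC site of a pair, 0 H3K9Ac windows and 0 listed regions of Bx lay at a CREB/CRTC site, in place of 1 each. The downstream CREB site of Bx still lay inside that window and region. With enrichment factors of at least 5, 1 CREB site of Smr was paired, in place of 3. H3K9Ac windows numbered 2 at Bx (in place of 1) and 12 at Smr (in place of 7) when overlapping peaks were merged at their deposited width. They numbered 2 and 11 when positions were chained within 100 bp, and 2 at Bx within 200 bp, both chosen after seeing the data. Without run 3, Bx had 0 H4K16Ac windows in place of 2. With an overlap of at least 200 bp, 1 H3K9Ac window and 1 H4K16Ac window of Smr overlapped the other mark, in place of 3 each. Near CRTC sites alone, Smr had 2 H3K9Ac windows (in place of 1) and 1 H4K16Ac window (in place of 0). These counts thus depend on the setting, and why each one moved was not tested.

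The lists hold only what passed the callers' thresholds, so an absent peak is not an absent mark. The lists give no library depth. Leaving out a library was not possible, because no column holds a library. No paired analysis was possible because the lists carry no values per library and no result comes from a test.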

Other observations

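Other symbols lay close to or inside the genes. Inside the span of the Smr rows, 1 CREB site carried the symbol CG15725, at chrX:12614220-12614230, with a factor of 4.07 and no CRTC site within 4239 bp. It stood 22251 bp downstream of the Smr TSS, and counting it by position would give Smr 4 CREB sites. The Release 6 annotation places CG15725 within Smr. No row of another symbol lay inside the span of the Bx rows.

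The Release 6 annotation gives Bx a start shared with HisRS (Aats-his in the files), a tRNA synthetase gene, upstream of the TSS used in the lists. A region listed as increased in H4K16Ac, chrX:18409406-18409806, carries the symbol Aats-his and holds that gene's TSS, at -19092 bp from the Bx TSS of the peak tables. Its H4K16Ac scores near that start were 2.12, 2.09, 0.693 and 2.21, and the H3K9Ac scores ran up to 3.21 without a listed region. The region lay 18714 bp from the nearest CREB site. Whether it belongs to a longer Bx transcript or to Aats-his cannot be told apart in these lists. CG6481, which the annotation also places within Bx, had H4K16Ac scores of 2.33, 2.18 and 3.19 and no CREB or CRTC site.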
